A study of Caenorhabditis elegans with 2 samples.

Results

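The ONECUT genes of Caenorhabditis elegans are 6 homeobox genes, ceh-38, ceh-39, ceh-21, ceh-41, ceh-48 and ceh-49, of 19973 protein-coding genes on the nuclear chromosomes. They were chosen by family membership and by what these same peak lists had already shown at them, so every value below is a description and carries no test. The data are ChIP-seq peak lists of CEH-2-GFP, an EMX-family homeodomain protein, in whole hermaphrodite late embryos of strain OP323 taken 5 hours after egg bleaching. The 2 biological replicates formed a single group, both from a line that stably carries CEH-2 with a C-terminal GFP-FLAG tag, precipitated with an anti-GFP antibody, and no untagged or untreated group was analysed here. The labels do not give the promoter or the number of copies of the tagged gene. In chromatin from whole embryos, strong occupancy in few cells and weak occupancy in many cannot be told apart.

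ONECUT proteins carry a single cut domain next to a homeodomain and bind DNA as transcription factors. The vertebrate members, which include hepatocyte nuclear factor 6, act in liver, pancreas and neurons. In the worm, ceh-48 is expressed throughout the nervous system, ceh-38 is expressed broadly, and CUT genes act together to keep pan-neuronal genes on. ceh-39 is known as an X signal element, a gene whose dose on the X chromosome helps to set sex by repressing xol-1.

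The reproducible list, which the authors thresholded by irreproducible discovery rate (IDR), held 1453 peaks with a lowest signal of 86.3. The relaxed lists held 16046 peaks from pooled reads, 18431 from replicate 1 and 15188 from replicate 2. The pooled one is labelled as peaks and background for the IDR step, so a relaxed summit need not be a bound site. By the peak caller's −log10 q-value, the weaker pooled summits near the members ran from 0.0447 to 0.886. The reproducible ones there ran from 2.4 to 2.5. Each annotated transcript start was given a promoter window that covered 1000 bp before it and 200 bp after it. The signal is the peak caller's own value and is comparable only within a list. The lists give no read counts, so depth is unknown and a pooled value has no error. Each replicate's own value and rank stand beside the pooled value instead.

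Reproducible summits lay in the promoter windows of ceh-38 and ceh-39, 2 of the 6 ONECUT genes, where 5.97% of all protein-coding genes had one. Another reproducible summit lay within the X-linked group of ONECUT genes, in the gene T26C11.9 between ceh-39 and ceh-21. The other 4 members had none in their windows. By gene body, the reproducible list had a summit in 1 of the 6 members, ceh-38, where 1.81% of all genes had one. It is the same summit as the one in the promoter window of ceh-38. Because these lists chose the genes, nothing is read from the size of these shares.

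**Figure D1:**
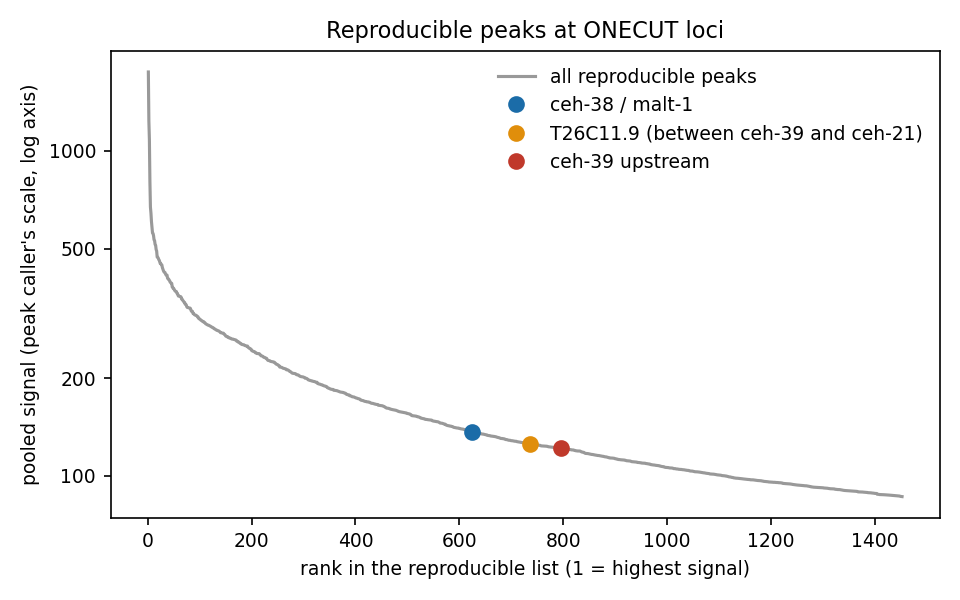
Pooled signal of each reproducible peak (vertical axis, log scale, the peak caller's units) against its rank in the list (horizontal axis), with coloured points for the 3 peaks at ONECUT loci. The peak at ceh-38 and malt-1 ranked 625, the peak in T26C11.9 ranked 736 and the peak upstream of ceh-39 ranked 795 of 1453, all in the flat middle of the curve.

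The DNA directly before ceh-38 and ceh-39 is shown because the loci differ in base composition. Both stretches lie outside every annotated transcript, read 5′ to 3′ toward the gene, and end at the base before its first annotated start. They were read from the RefSeq genome of WBcel235, the assembly of ce11. Capitals mark bases within 50 bp of the reproducible summit, which itself lies in the ceh-39 stretch but just past the end of the ceh-38 stretch, so that 37 of its 101 bases are shown there. The first is chrII:6951301-6951525 on the plus strand, from the start of malt-1 to ceh-38, and the second is chrX:1856173-1856472 on the minus strand, from the noncoding gene T26C11.10 to ceh-39.
ceh-38 upstream: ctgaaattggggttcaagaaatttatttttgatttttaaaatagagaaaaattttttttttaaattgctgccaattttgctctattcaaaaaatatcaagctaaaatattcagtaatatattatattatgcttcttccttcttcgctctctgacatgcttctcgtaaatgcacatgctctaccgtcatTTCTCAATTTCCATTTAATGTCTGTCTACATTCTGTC
ceh-39 upstream: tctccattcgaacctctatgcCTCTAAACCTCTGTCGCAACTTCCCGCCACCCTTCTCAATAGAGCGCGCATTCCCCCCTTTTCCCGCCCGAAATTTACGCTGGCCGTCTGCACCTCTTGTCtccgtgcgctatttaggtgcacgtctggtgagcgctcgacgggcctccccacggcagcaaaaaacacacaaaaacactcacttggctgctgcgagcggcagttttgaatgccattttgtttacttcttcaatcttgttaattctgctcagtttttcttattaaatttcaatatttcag

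The ceh-38 stretch was rich in A and T, with a GC content of 28.9%, and the ceh-39 stretch held 49%. Within 50 bp of the summit itself, GC content was 39.6% at ceh-38 and 57.4% upstream of ceh-39. The median over 1430 nuclear reproducible summits was 49.5%, and 9.16% of them were lower than ceh-38 while 85.3% were lower than ceh-39. Windows centred 300 bp to either side of the summit held 32.7% on both sides at ceh-38, and 40.6% and 28.7% at ceh-39. At the summit in T26C11.9 GC content was 47.5%, with 38.6% and 26.7% to the sides. Each of the 3 summits was thus richer in G and C than its own flanks.

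ceh-38, at II:6951526-6955409 on the plus strand (WBGene00000459), is the member with the most annotated transcripts, 24 with 11 different starts. Its reproducible summit at 6951539 had a pooled signal of 136.8 and ranked 625 of 1453. The summit lay 13 bp downstream of the first start, in a 5′ UTR, and 239 bp upstream of the divergent gene malt-1, which encodes the worm MALT1 paracaspase. The promoter windows of both genes hold it, so the peak cannot be given to either gene alone.

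In replicate 1 the peak at ceh-38 had a signal of 51.5 and ranked 1094 of 18431, and in replicate 2 it had 83.01 and ranked 479 of 15188. It stood higher in the list of replicate 2 than in that of replicate 1. Both replicates placed the summit at the same base, 6951539. Among 1428 nuclear reproducible peaks found in both replicates, 2.52% had the same summit base in both and the median distance was 25 bp.

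The weaker summits at ceh-38 did not recur in the same way. Replicate 1 had a relaxed summit of 16.3 in a coding exon, 161 bp from the nearest start and so in the window. It also had 20.4 beyond the 3′ end, inside tra-2, a gene on the other strand that overlaps the end of ceh-38. Replicate 2 had a summit of 17.99 in an intron. The pooled list held none of these 3 summits. Their −log10 q-values were 0.052, 0.221 and 0.0264, against 2.49 and 2.28 for the reproducible peak in replicates 1 and 2. The pooled list also held summits of 40.5 and 30.9 in the body of malt-1, upstream of ceh-38, and both replicates had a summit near the first of these, with 15.9 and 23.8.

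ceh-39 (WBGene00000460), ceh-21 (WBGene00000444) and ceh-41 (WBGene00000462) stand in a row on the minus strand of chromosome X, from 1856172 down to 1846608. The span of 9565 bp holds 4 genes, these 3 and T26C11.9, which encodes an uncharacterized protein. The genes are close together, with 24 bp between ceh-39 and T26C11.9, 101 bp between T26C11.9 and ceh-21, and 103 bp between ceh-21 and ceh-41. Inside the span lay 1 reproducible summit, and 3 summits of the pooled list, 2 of replicate 1 and 3 of replicate 2. That is 0.105 reproducible summits per kb against 0.0161 over all of X, which rests on a single summit.

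The summit upstream of ceh-39, at 1856401, had a pooled signal of 121.7 and ranked 795 of 1453. It lay 229 bp upstream of the annotated start and 72 bp from T26C11.10, a noncoding RNA gene of unknown class on the other strand, whose window also holds it. Replicate 1 gave 57.7, rank 879, with the summit at 1856397, and replicate 2 gave 62.5, rank 827, with the summit at 1856390. The 2 replicates thus ranked this peak alike and placed it 7 bp apart, a distance that 20.9% of reproducible peaks met or stayed under.

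The summit in T26C11.9, at 1853781, was the stronger of the X-linked pair by pooled signal, at 125.6 and rank 736. It lay in the 5′ UTR of T26C11.9, 68 bp downstream of a start, and 93 bp beyond the 3′ end of ceh-39. From the annotated start of ceh-21 it was 1045 bp upstream, 45 bp outside the window. The summits of replicates 1 and 2 lay 4 bp and 48 bp outside that window. Replicate 1 gave 68.6, rank 617, and replicate 2 gave 57.3, rank 966, with summits 44 bp apart. The order of the X-linked pair was therefore not the same in both replicates: the T26C11.9 summit was higher in replicate 1 and the ceh-39 summit in replicate 2. That distance was above the median of 25 bp.

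**Figure D2:**
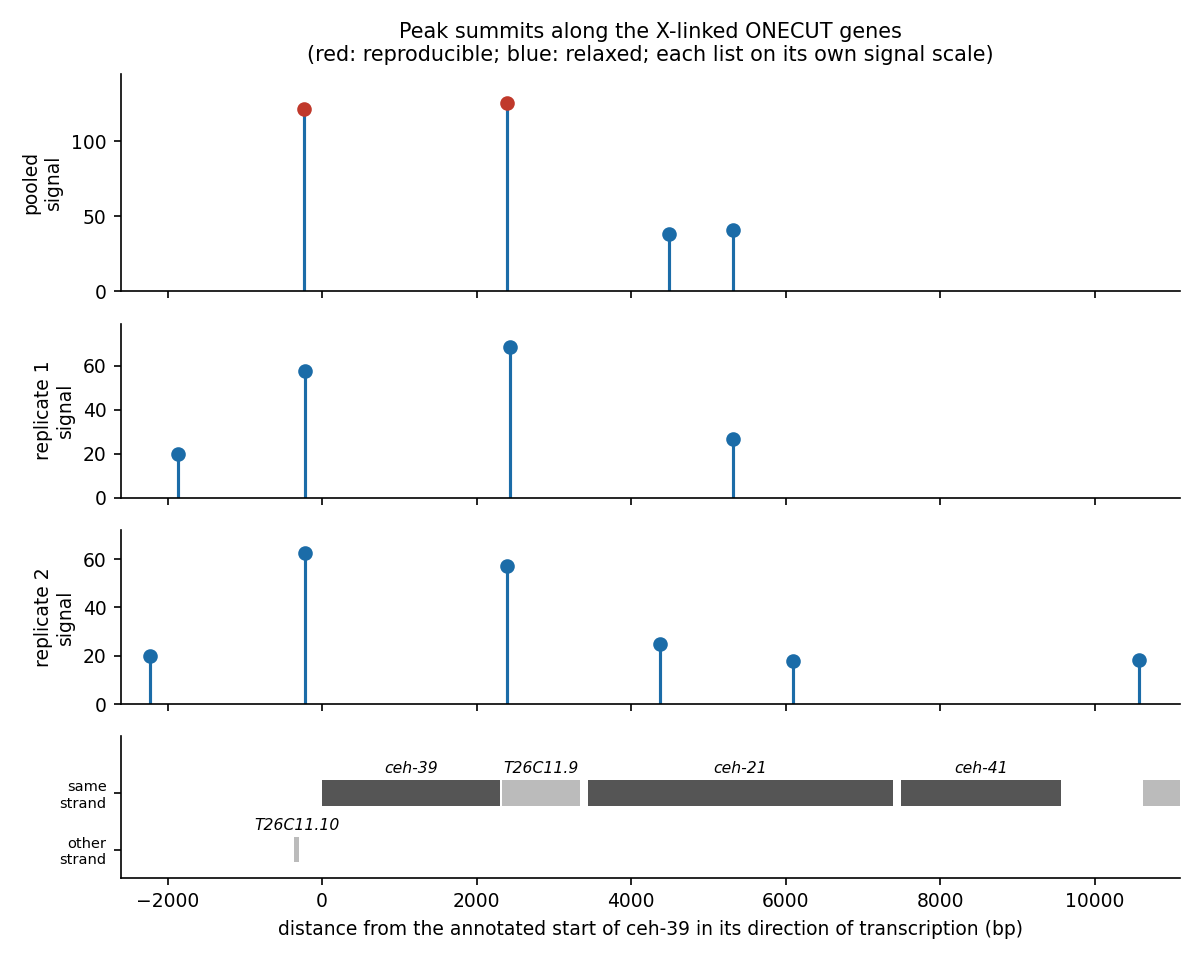
Signal of each summit (vertical axes, each list on its own scale) against distance from the annotated start of ceh-39 in its direction of transcription (bp), for the pooled list and both replicates, above the annotated genes. The reproducible summits, in red, flank ceh-39 with 121.7 upstream and 125.6 in T26C11.9, and only relaxed summits of 41.1 or less in the pooled list lie in ceh-21.

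ceh-21 itself held only relaxed summits, 41.1 in an intron and 38.1 in a coding exon in the pooled list. The intron summit recurred in replicate 1, at 26.6 and 5 bp away, but not in replicate 2. Replicate 2 had 24.7 at 1851796 in an intron, in a peak that overlapped the pooled peak with the coding exon summit, and 17.6 in another coding exon. No list had a summit in the promoter window of ceh-21, though the T26C11.9 summit of replicate 1 lay only 4 bp outside it. ceh-41 had none in its window or body in any list, and its nearest reproducible summit was the one in T26C11.9, 5106 bp upstream. The annotation gives neither ceh-21 nor ceh-41 a 5′ UTR, so their windows start from the coding start.

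ceh-48, at IV:6812108-6815607 on the plus strand (WBGene00015934), and ceh-49, at V:6118333-6120206 on the minus strand (WBGene00017538), had no reproducible summit within 2500 bp. The nearest were 21495 bp from the start of ceh-48 and 12532 bp from that of ceh-49. The median over all protein-coding genes was 27609 bp, so both were somewhat nearer than the typical gene, with 42.8% and 29.3% of genes as near or nearer. For ceh-38, ceh-39, ceh-21 and ceh-41 those shares were 0.170%, 2.80%, 6.49% and 15.6%.

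At ceh-48, only replicate 2 had a relaxed summit in the window, 18.98 at 241 bp upstream, rank 12378 of 15188. Its −log10 q-value was 0.0522. A summit in a coding exon had 34.05 in the pooled list and 24.97 in replicate 2, with none in replicate 1. The strongest pooled summit nearby, 53.8, lay 2246 bp upstream in the noncoding RNA gene C17H12.31. Replicate 1 had 28.5 in the same gene, and replicate 2 had 31.2 outside it, 2123 bp upstream of ceh-48. At ceh-49, the pooled list had a single summit of 35.9, 1063 bp upstream and 63 bp outside the window, in the 3′ UTR of the titin gene ttn-1. Replicate 2 had 27.09 close by, and replicate 1 had no summit within 2500 bp of ceh-49.

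**Figure D3:**
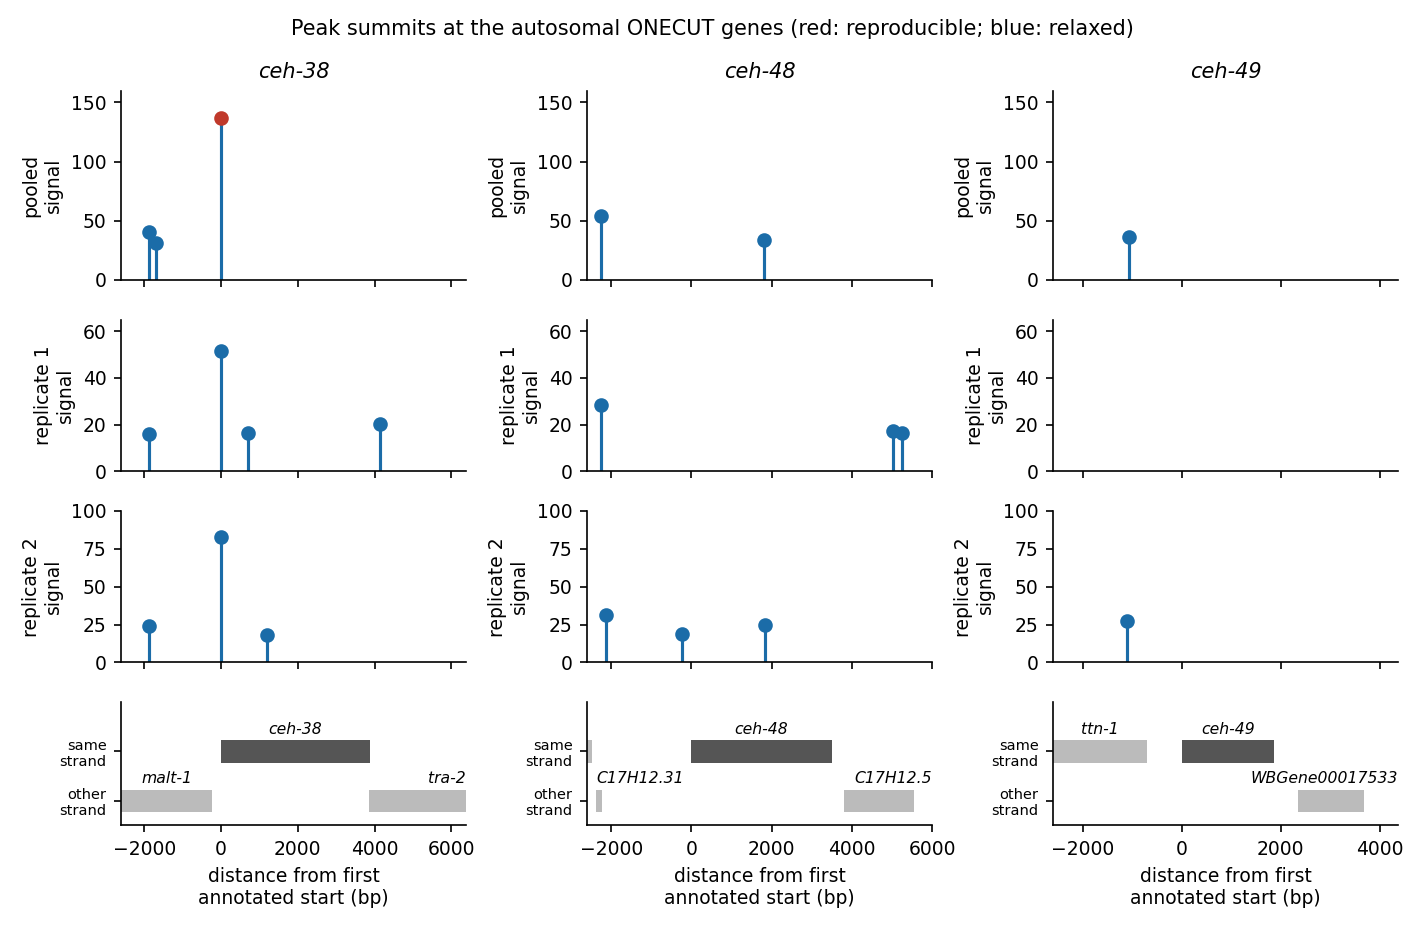
Signal of each summit (vertical axes, each list on its own scale) against distance from the first annotated start (bp) of ceh-38, ceh-48 and ceh-49, for the pooled list and both replicates, above the annotated genes. The red point is the reproducible summit of 136.8 at the start of ceh-38, and the pooled summits of ceh-48 and ceh-49 are at 53.8 or less.

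In promoter windows the relaxed lists differed over the ONECUT genes by ceh-48 alone. Pooled reads gave a promoter summit at 2 of 6 members, ceh-38 and ceh-39, where 29.4% of all genes had one. Replicate 1 gave the same 2 members against 30.8% of genes, and replicate 2 gave 3, with ceh-48 added, against 28.2%. Pooled summits in the gene body were found in 3 of 6 members, ceh-38, ceh-21 and ceh-48, against 27.2%. The one in ceh-38 is also its promoter summit. These lists also entered the choice of the genes, so nothing is read from the shares.

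**Figure D4:**
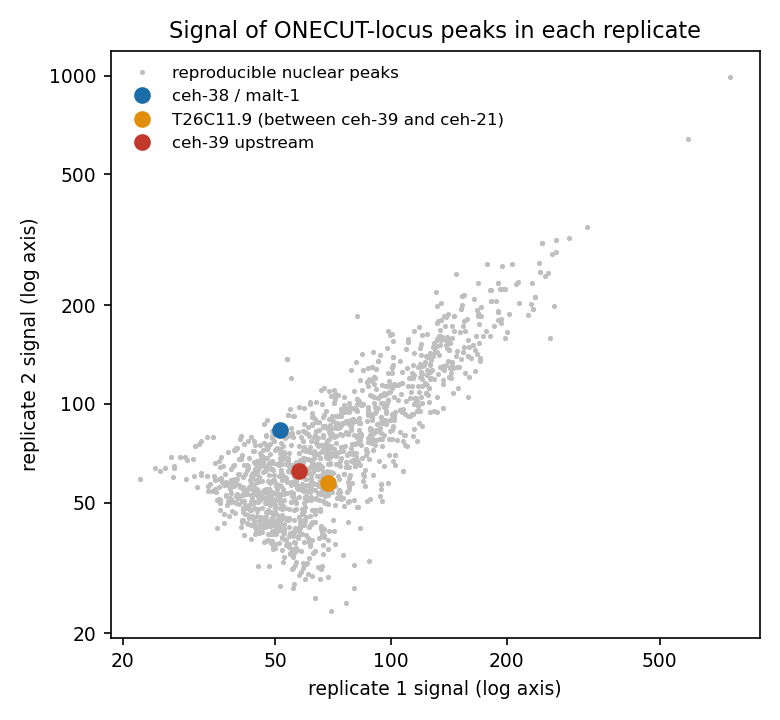
Signal of the 1428 nuclear reproducible peaks matched in both replicates (grey), replicate 1 on the horizontal and replicate 2 on the vertical axis, both on log scales, with the 3 peaks at ONECUT loci in colour. The ceh-38 peak is the lowest of the 3 in replicate 1, at 51.5, and the highest in replicate 2, at 83.01, and the X-linked peaks lie between 57.3 and 68.6 in both.

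Among the 1192 genes with a reproducible promoter summit, ceh-38 ranked 605 and ceh-39 ranked 740 by highest signal, both below the median of 138.04, with 49.2% and 37.9% of these genes lower. Likeness to other genes was measured as the summed difference in percentile rank over the pooled list and both replicates, among 1185 genes with a promoter summit in these lists and in the reproducible list. Nearest to ceh-38 were cept-2, a phospholipid synthesis gene, at 0.250 percentage points, and apb-1 and mdt-19, which share a summit, at 0.342. apb-1 encodes an adaptor protein subunit and mdt-19 a Mediator subunit. Nearest to ceh-39 were E01A2.1 and the akirin gene akir-1, with a shared summit at 0.262, and the histone demethylase gene jhdm-1 at 0.310. The ceh-38 peak was in the top 5.94% of replicate 1 and the top 3.15% of replicate 2. Because the measure uses both replicates, the genes nearest to ceh-38 share this lean toward replicate 2 by selection.

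The 3 reproducible summits were searched on both strands, within 50 bp, for the homeodomain cores TAATTA and TAATGA, the ONECUT core ATTGAT, and GAGAGA and GGCCAC. Neither homeodomain core was found at any of them. Over all reproducible summits, TAATTA was held by 2.17% against 5.38% of the windows 300 bp to the sides, and TAATGA by 1.54% against 5.24%. Base composition was not matched between summits and side windows, and the 3 summits here were richer in G and C than their flanks. For all 5 sequences, nothing is therefore read from the difference between summits and side windows. The ceh-38 and ceh-39 summits held none of the 5 sequences. The T26C11.9 summit held ATTGAT, found at 4.69% of reproducible summits and 10.8% of the side windows. It also held the motif GAGAGA, found at 24.5% and 7.45%, and the motif GGCCAC, found at 14% and 1.82%. None of the 5 overlapped another there. ATTGAT began 46 bp before the summit in the direction of T26C11.9, GAGAGA 22 bp before it and GGCCAC, as its reverse complement GTGGCC, 6 bp after it.

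The sites nearest to that summit are shown with the motif in capitals, on the minus strand of X, at chrX:1853786-1853815 before the summit and chrX:1853758-1853787 across it.
site before the summit: gggttagccgacGAGAGAcgcagaggtatt
site across the summit: ttcacacatgtgGTGGCCtaagatctcatt

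Of the 7 weaker pooled summits near the members, the one at ceh-49 held TAATTA and ATTGAT, the one in the coding exon of ceh-48 held GGCCAC, and the other 5 held none. Among 14592 pooled nuclear summits outside the reproducible list, 5.17% held TAATTA, 7.67% ATTGAT and 3.82% GGCCAC. GC content at these 7 ran from 20.8% at ceh-49 to 60.4% in the intron of ceh-21, around a median of 43.6% for such summits.

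The ceh-39 sequence ends in TTTCAG directly before its annotated start. These are the letters of a worm 3′ splice site, where trans-splicing joins a leader to many messages, so an annotated start after them need not be where transcription begins. The same letters stood before the starts of ceh-41, ceh-48 and ceh-49 and before 1 of 11 starts of ceh-38, and ceh-21 had TTTTAG. Over all protein-coding genes, 16.8% had TTTCAG before a start. The first start of ceh-38 and both starts of T26C11.9 did not follow them. This was looked up after the sequence was seen.

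Genes tied to the ONECUT family by role were described from lists of names, beside the 5.97% of all protein-coding genes with a reproducible promoter summit and the 29.4% with a pooled one. Of the 57 other genes named ceh, 1, or 1.75%, had a reproducible promoter summit, the tagged gene ceh-2 with 224.2. The labels do not give the number of copies of the tagged gene, so this signal cannot be given to the native locus alone. A pooled promoter summit was found at 18, or 31.6%, of the 57. ceh-44, the CUT gene of the CUX class, which the annotation places in cone-1, had no promoter summit in any list. Of 9 genes of the sex determination signal and dosage compensation, 8 were matched, of which 0 had a reproducible promoter summit and 5, or 62.5%, a pooled one. At 5.97% of all genes, a count of 0 in a list this short says little. Nothing is read from the pooled share either. Of the 5 genes, sdc-2 had no promoter summit in replicate 2 and sdc-3 had none in replicate 1. Among the 8 matched genes, xol-1, the switch that ceh-39 represses, had no promoter summit in any list. The gene fox-1, an RNA-binding X signal element, had 58.2 in the pooled list, 33.9 in replicate 1 and 28.6 in replicate 2. sex-1, a nuclear receptor gene with the same role, had 21.6 in replicate 2 alone.

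Of 18 pan-neuronal genes, the kind of gene that CUT factors are known to act on, 3, or 16.7%, had a reproducible promoter summit, against 5.97% of all genes, and 13, or 72.2%, a pooled one, against 29.4%. The list was chosen with these results known, so nothing is read from its shares. The 3 genes were ehs-1, an endocytosis gene, with 167.2, syd-2, a liprin of the synapse, with 161.04, and maco-1, a macoilin, with 107.97. Their replicate values were 74.1 and 93.8 for ehs-1, 81.6 and 79.6 for syd-2, and 49.5 and 58.5 for maco-1. Relative to the start, with minus for upstream, the summits lay at -843 bp for ehs-1, -392 bp for syd-2 and -722 bp for maco-1. Other genes whose windows may hold these summits were not looked up, so the peaks cannot be given to these genes alone. In both replicates ehs-1 and syd-2 stood above the ceh-39 peak and maco-1 below it. The synaptic vesicle gene rab-3 had a pooled promoter summit of 46.2, and unc-64, the worm syntaxin, had none in any list.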

How the data were processed

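Per the labels and the deposited file lists, the authors called relaxed peaks on each replicate with a control and on both replicates together, and derived the optimal set by the irreproducible discovery rate. For the peak caller, aligner, filters and thresholds, the sources used here name none. The deposited signal value is a score of unstated scale, and the deposited −log10 q-value was not used to rank. Lists are on ce11, and the ce10 lists and the control were not used here. Gene models are from Ensembl release 115 (WBcel235, the assembly of ce11), and all peak ends lay within the chromosomes. A summit was given to every gene whose window held it. Ranks include mitochondrial peaks. The replicates' peaks are the strongest ones overlapping a reproducible peak. The members and lists were chosen with earlier results of these data known, so no test was run. Named genes are the 6 members, the genes sharing their reproducible summits, the genes between the X-linked members and the 3 nearest in rank pattern. Genes holding weaker summits (ttn-1, C17H12.31, tra-2) and examples from the related lists were also named, both picked after their values were seen. The name sex-2 was not matched, and ceh-44 was matched through RefSeq. Proteins were not compared here. Window assignment was tested on simulated data. Alternatives were other windows, peak intervals, a stronger list and each replicate alone. Python 3.11.15, numpy 2.4.6 and matplotlib 3.10.9 were used.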

Additional observations from a re-analysis of the deposited data

How the results depend on the processing

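ceh-38 and ceh-39 had a reproducible promoter summit with the window shortened to 500 bp and with RefSeq starts, a setting chosen after seeing the data. Both also had a promoter summit among the strongest 1453 peaks of either replicate alone, which are not filtered for reproducibility. The peaks at ceh-38 and ceh-39 held the same ranks, 625 and 795, in the pooled list as in the reproducible list. Of 1430 nuclear reproducible peaks, 1428 had a peak in both replicates. Being in the reproducible list is therefore not shown to be a separate check of each peak. With a window of 2000 bp, or with peak intervals in place of summits, ceh-21 was added through the T26C11.9 peak, which made 3 of 6. In the stronger part of the list, at or above the median signal of 126.3, only ceh-38 kept one, 1 of 6, while all genes fell from 1192 to 683, because that setting keeps fewer peaks. Under the other settings all genes ran from 937 to 1547. In the pooled list, a window of 2000 bp or peak intervals gave 4 of 6 members in place of 2, with ceh-21 and ceh-49 added, where the share of all genes was 38.9% and 33.7% in place of 29.4%, a comparison chosen after seeing the data. The relaxed list of replicate 2 added ceh-48. The signals of ceh-38 and ceh-39 were the same under the 3 settings run for them, both other windows and peak intervals. Depth is unknown, and a member with no summit in a list is not shown to be unbound.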

Other observations

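Outside the ONECUT family, the homeobox gene ceh-43, the worm distal-less gene, had a pooled promoter summit of 86.2, just under the lowest signal of the reproducible list, 86.3. Replicate 1 had 47.8 there and replicate 2 had no summit in the window. It was singled out after its value was seen.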
